A study of Oryza sativa Japonica Group with 4 samples.

Results

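Trehalose-6-phosphate synthase (TPS) and phosphatase (TPP) transcripts were followed in shoots of seedlings of japonica rice (Oryza sativa). The 10 genes were taken by locus identifier from the 28491 genes listed in the RNA sequencing tables. They were the 2 phosphatase genes OsTPP1 (LOC_Os02g44230) and OsTPP2 (LOC_Os10g40550), the class I synthase gene OsTPS1 (LOC_Os05g44210), and 7 class II synthase genes given here by locus. Of these, 9 were listed in all 4 libraries and passed the filter on low counts. LOC_Os09g25890 did not pass.

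The 2 groups were a modd mutant, titled modd2 and taken from the POSTECH rice mutant library, and its wild type, the japonica cultivar DongJin (DJ), with 2 libraries each. Both were grown in soil under natural light, with 14 h of light and 10 h of dark, without a stress treatment, and were harvested with 4 leaves. The kind and site of the mutation, the hour of harvest and the number of plants behind a library are not stated in any source used here. Nothing states that replicates came from separate plants, so the spread behind the p-values is that between these samples and may be technical.

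Trehalose-6-phosphate is made from UDP-glucose and glucose-6-phosphate by TPS and is dephosphorylated to trehalose by TPP, and trehalase then splits trehalose into glucose. In plants the phosphorylated intermediate is known as a signal of sucrose status that inhibits the energy-sensing kinase SnRK1. Class I synthases are the catalytically active ones. Class II proteins carry both a synthase-like and a phosphatase-like domain and, in Arabidopsis, have little or no known enzyme activity and are known for transcripts that respond to sugar supply.

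Libraries held from 5334814 to 5393972 expected reads. All 5 leaf markers (small-subunit genes of Rubisco, LHCB1 and PSBS1) were listed in every library. Of the 5 root markers looked for, OsYSL15, LSI2 and OsNRT2.1 were found in no library. LSI1 and OsHKT2;1 were found in every library, with 78 to 108 and 22 to 57 expected reads. MODD itself (LOC_Os03g11550) was called higher in the libraries labelled modd2, by 0.93 on the log2 scale (adjusted p = 0.0272, edgeR, but 0.0792 and 0.0868 with limma on 2 log2 FPKM scales). This is not the pattern of a line that has lost the transcript, but no label says that this line has. The mean transcript length given for MODD was 1666 bases in both libraries labelled modd2 and 1678 bases in both DJ libraries, so the mix of its 2 listed transcripts also differed. Directions below hold for the libraries as labelled. Along the leading principal component over the tested genes, the libraries labelled modd2 lay at -31.4 and -22.3 and the DJ libraries at 9.38 and 44.3, so DJ replicate 2 stood apart.

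In the libraries labelled modd2, the transcripts of OsTPP1 and of 1 class II synthase gene, LOC_Os01g54560, were lower, 3.42-fold and 1.79-fold. No member was called higher. A gene was called at a Benjamini-Hochberg adjusted p under 0.05 in edgeR's quasi-likelihood test on expected counts, adjusted over all 19365 genes tested. Of those genes 0.837% were called in either direction, 0.336% lower and 0.501% higher. By edgeR, 2 of the 9 tested members were called lower and 0 higher. By DESeq2, which called 1.81% of all tested genes in either direction, they were also 2 and 0, but it gave OsTPP2 no adjusted p. At an unadjusted p under 0.05, which 16.8% of all tested genes had, the numbers were 4 lower and 0 higher. Leaving out 1 library moved both the members called and the share of all genes called. Without modd2 replicate 1, 0 members were called, against 0.719% of genes, and without modd2 replicate 2 the 1 called was LOC_Os01g54560, against 2.94%. Without DJ replicate 1, 5 members were called, against 12.4% of genes. Without DJ replicate 2, 3 were called, all lower, with LOC_Os08g34580 added, against 2.28%. With limma on log2 FPKM no member was called, and 1 gene was among all those tested. In whole shoots, less RNA per cell and fewer cells of a type cannot be told apart.

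**Figure D1:**
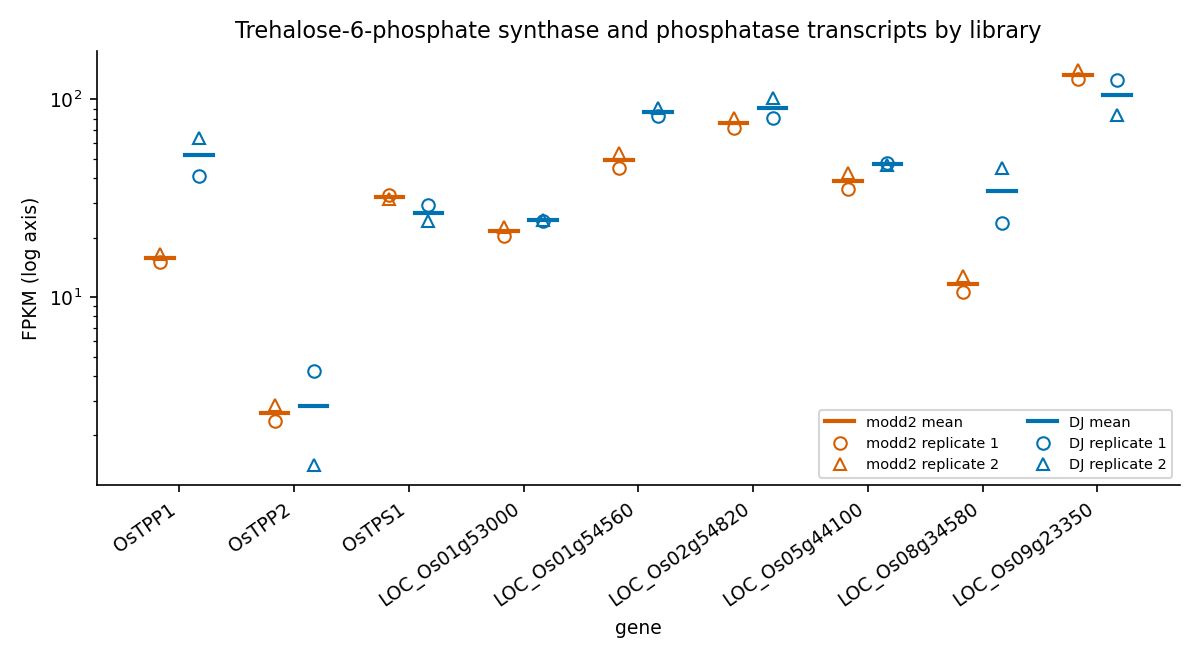
FPKM on a log axis for the 9 members listed in all 4 libraries, with each library as an open symbol and each group mean as a bar, modd2 left of DJ. Groups lie furthest apart for OsTPP1, LOC_Os08g34580 and LOC_Os01g54560. The DJ libraries of OsTPP1 and LOC_Os08g34580 also differ from each other. Those of LOC_Os08g34580, at 23.9 and 44.9 FPKM, differ in FPKM about as much as the group means, with the nearest modd2 library at 12.8 FPKM. On the log2 scale of the counts the DJ libraries differ by 0.98, against a change of -1.60 between the groups. OsTPP2 spans from 1.41 to 4.24 FPKM within DJ alone.

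OsTPP1 codes for a phosphatase whose overexpression in rice is known to raise tolerance of salt and cold. It had 144 and 158 expected reads in the libraries labelled modd2, against 390 and 615 in the DJ libraries. FPKM, which scales reads by transcript length and by library size, stood at 15.1 and 16.5 in the libraries labelled modd2 and at 40.9 and 63.9 in DJ. The groups did not overlap, and the DJ libraries differed more from each other than those labelled modd2.

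On the log2 scale the change of OsTPP1, modd2 over DJ, was -1.77 ± 0.246 (SE, n = 2 per group, adjusted p = 0.0455, edgeR). It ranked 126 among all tested genes by p, and 0.47% of tested genes had a lower log2 change. Within DJ, the log2 level in replicate 2 was 0.70 above that in replicate 1, and within modd2 the same difference was 0.15. Leaving out DJ replicate 2 gave a log2 change of -1.38, and leaving out DJ replicate 1 gave -2.09. The gene stayed called in both fits, but these take the spread mainly from the libraries labelled modd2 and drop that within DJ. The call ended when the lone library labelled modd2 was replicate 2 (log2 change -1.70, adjusted p = 0.239, edgeR) or replicate 1 (-1.85, adjusted p = 0.118, edgeR).

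OsTPP2, the other phosphatase member, was the lowest of the 9 tested. It had 24.5 and 30.2 expected reads in the libraries labelled modd2, against 43 and 15.1 in the DJ libraries. Both libraries labelled modd2 lay between the DJ libraries. The change on the log2 scale was -0.13 ± 0.433 (SE, n = 2 per group, adjusted p = 0.906, edgeR), and its sign turned without DJ replicate 1, to 0.78. Its expected counts held fractions, so reads were shared with similar genes.

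The FPKM ratio of OsTPP1 to OsTPP2 was 6.37 and 5.82 in the libraries labelled modd2, against 9.64 and 45.3 in the DJ libraries. The difference in mean log2 ratio, modd2 minus DJ, was -1.78. The exact two-sided permutation test over the 4 libraries gave p = 0.333, the smallest p this design allows. That difference rested in large part on DJ replicate 2, without which it was -0.66, and it was -2.90 without DJ replicate 1. With 2 libraries per group, an unequal change of the 2 phosphatase genes could not pass this test.

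OsTPS1 codes for the active class I synthase, whose overexpression in rice is known to raise tolerance of cold, salt and drought. It had 533 and 508 expected reads in the libraries labelled modd2, against 474 and 399 in DJ. Per length this was 32.8 and 31.3 FPKM in modd2, against 29.1 and 24.3 FPKM in DJ. The groups did not overlap, with the libraries labelled modd2 above DJ. Its log2 change was 0.22 ± 0.11 (SE, n = 2 per group, adjusted p = 0.352, edgeR) and was not called. DJ replicate 2 was the lowest library.

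Among class II synthase genes, LOC_Os01g54560 was called. It had 816 and 972 expected reads in the libraries labelled modd2, against 1475 and 1645 in the DJ libraries. Per length this was 45.2 and 53.8 FPKM in modd2, against 82.3 and 90.7 FPKM in DJ. Each group was close together and the groups were well apart. The change on the log2 scale was -0.84 ± 0.127 (SE, n = 2 per group, adjusted p = 0.0265, edgeR), which ranked 44 among all tested genes by p. Without DJ replicate 2 it was -0.73, with the spread then taken mainly from the libraries labelled modd2. Without modd2 replicate 1 it was -0.71 and no longer called (adjusted p = 0.0588, edgeR).

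LOC_Os08g34580 had 167 and 205 expected reads in the libraries labelled modd2, against 378 and 721 in the DJ libraries. In FPKM these were 10.6 and 12.8 for modd2 against 23.9 and 44.9 for DJ. Both libraries labelled modd2 were below both DJ libraries, and DJ replicate 2 was 0.98 above DJ replicate 1 on the log2 scale. Its log2 change was -1.60 ± 0.413 (SE, n = 2 per group), close in size to that of OsTPP1, but the edgeR adjusted p was 0.213. The gene was called lower without DJ replicate 2 (log2 change -1.03, adjusted p = 1.82e-05, edgeR) and without DJ replicate 1 (-2.02, adjusted p = 3.9e-18, edgeR), where the spread is taken mainly from the libraries labelled modd2. It was also called with a non-robust fit (adjusted p = 0.0455, edgeR) and with the replicate number as a block (log2 change -1.55, adjusted p = 0.000665, edgeR).

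LOC_Os09g23350 was the most abundant member in mean level. It had 2899 and 3219 expected reads in the libraries labelled modd2, against 2888 and 1937 in the DJ libraries. Per length this was 126.8 and 140.1 FPKM in modd2, against 126 and 83.8 FPKM in DJ. DJ replicate 1 was level with modd2 replicate 1, and DJ replicate 2 was the only low library. The change on the log2 scale was 0.31 ± 0.168 (SE, n = 2 per group, adjusted p = 0.389, edgeR), and without DJ replicate 2 it was 0.07. Without DJ replicate 1 it was 0.59 and called, with the spread then taken mainly from the libraries labelled modd2.

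The remaining 3 tested class II genes had log2 changes between -0.32 and -0.22 and were not called. LOC_Os02g54820 had 1248 and 1399 expected reads in the libraries labelled modd2, against 1407 and 1781 in DJ (log2 change -0.31, adjusted p = 0.307, edgeR). LOC_Os05g44100 had 669 and 806 reads in modd2 against 906 and 892 in DJ (-0.32, adjusted p = 0.215, edgeR). LOC_Os01g53000 had 355 and 398 reads in modd2 against 423 and 433 in DJ (-0.22, adjusted p = 0.361, edgeR). Each of the 3 had both libraries labelled modd2 below both of DJ, as did 25.6% of all tested genes. Without DJ replicate 1, LOC_Os02g54820 was called lower (log2 change -0.49), with the spread then taken mainly from the libraries labelled modd2.

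LOC_Os09g25890 had 1 read in replicate 2 labelled modd2 and was not listed in the other 3 libraries, so no fold is given. A count of 0 allows up to 3 reads, or 0.556 to 0.562 CPM (counts scaled to a common library size) in these libraries, a limit that covers counting error only.

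Over the 9 tested members, 6 had both libraries labelled modd2 below both DJ libraries and 1 had both above. Of all tested genes, 50.3% had groups that did not overlap, 25.6% lower and 24.7% higher in modd2. The median log2 change was -0.31 over the tested members, ranging from -1.77 to 0.31, and 0.00 over all tested genes. As the members were chosen with earlier results of these data known, these figures describe the list only.

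**Figure D2:**
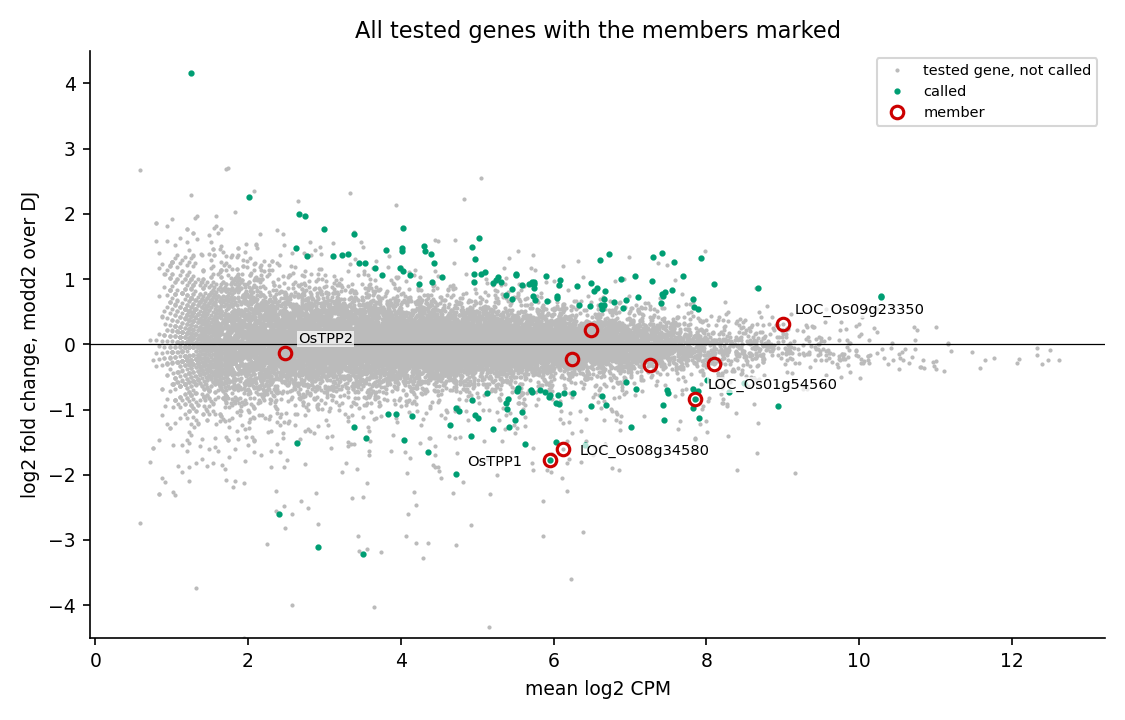
Log2 change of modd2 over DJ against mean log2 CPM for all tested genes except 2 beyond the axis, with called genes in green and the 9 tested members circled in red. OsTPP1 and LOC_Os08g34580 lie at -1.77 and -1.60, LOC_Os01g54560 at -0.84, and the other 6 members between -0.32 and 0.31.

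Levels per length spanned a wide range among the members. In the libraries labelled modd2 the order of FPKM was LOC_Os09g23350, LOC_Os02g54820, LOC_Os01g54560, LOC_Os05g44100, OsTPS1, LOC_Os01g53000, OsTPP1, LOC_Os08g34580 and OsTPP2, and no neighbours in that order had overlapping libraries. OsTPP1 stood at rank 7 and LOC_Os08g34580 at rank 8 in modd2, against ranks 4 and 6 in DJ. In DJ the 3 most abundant genes, LOC_Os09g23350, LOC_Os02g54820 and LOC_Os01g54560, could not be ordered, as the libraries of each overlapped those of the next. OsTPP1 likewise overlapped LOC_Os05g44100, and LOC_Os08g34580 overlapped OsTPS1, which overlapped LOC_Os01g53000.

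The make-up of the synthase transcripts was described by shares of their summed FPKM. Summed over the class I and class II members, FPKM was 343 and 383.4 in the libraries labelled modd2 and 413.7 and 416.3 in DJ. LOC_Os09g23350 made up 37 and 36.5% of that sum in the libraries labelled modd2, against 30.4 and 20.1% in DJ. LOC_Os01g54560 made up 13.2 and 14% in modd2 against 19.9 and 21.8% in DJ, and LOC_Os08g34580 3.09 and 3.33% in modd2 against 5.76 and 10.8% in DJ. The shares of LOC_Os01g53000 lay between 5.87 and 5.98% in all 4 libraries. These shares are descriptions and were not tested.

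**Figure D3:**
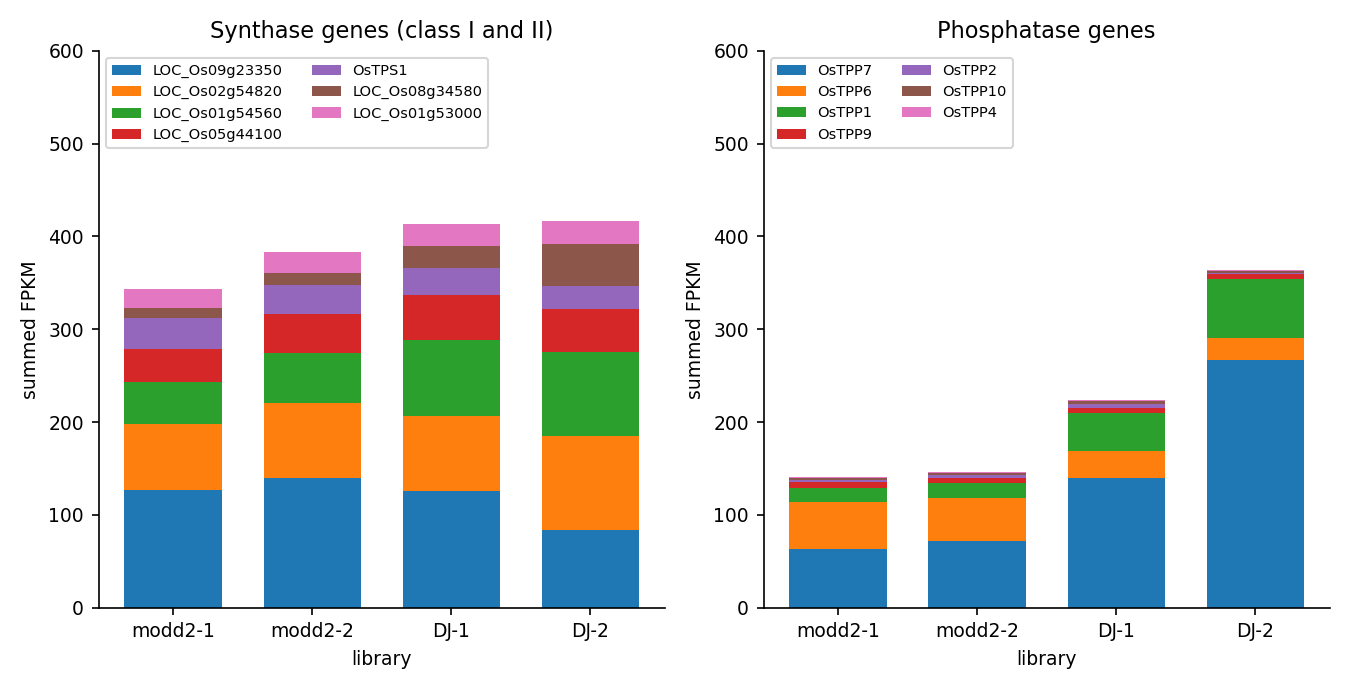
Stacked FPKM of the synthase genes (left) and of phosphatase genes averaging 1 FPKM or more (right) in each library, modd2 left of DJ. The synthase sums lie between 343 and 416.3 FPKM, while the sums over all 10 phosphatase genes are 141.5 and 146 FPKM in the libraries labelled modd2 and 224 and 364 FPKM in DJ.

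Transcript forms of the members were compared through the mean transcript length given in the tables, which weights each listed transcript by its abundance. It did not vary for LOC_Os05g44100 and LOC_Os09g23350, each with 1 listed transcript. For OsTPP1, with 4 listed transcripts, it was 1785 and 1782 bases in the libraries labelled modd2 and 1782 and 1783 bases in DJ. For LOC_Os01g54560, with 3, it was 3345 and 3334 bases in modd2 against 3314 and 3325 bases in DJ. OsTPP2 varied most, at 1927 and 1979 bases in modd2 against 1893 and 1979 bases in DJ, on few reads.

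The other phosphatase genes of rice, which code for enzymes of the same step as OsTPP1, were examined as a list of 8. Of these 5 were tested. By edgeR, which called 0.837% of all tested genes in either direction, 1 was called higher and 0 lower. By DESeq2, which called 1.81%, 1 was called higher and 1 lower. At an unadjusted p under 0.05 (16.8% of all tested genes), 1 was higher and 1 lower. OsTPP6 (LOC_Os08g31630) was higher, with 733 and 673 expected reads in the libraries labelled modd2 against 431 and 352 in DJ. Its log2 change was 0.81 ± 0.115 (SE, n = 2 per group, adjusted p = 0.0235, edgeR), opposite in sign to that of OsTPP1, and it was called with each library left out in turn but not with limma on log2 FPKM (adjusted p = 0.0825 and 0.0868).

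OsTPP7 (LOC_Os09g20390), known for its role in germination under water in rice, was the most abundant phosphatase gene. It had 541 and 611 expected reads in the libraries labelled modd2, against 1182 and 2303 in DJ. Per length this was 63.8 and 72 FPKM in modd2, against 139.4 and 267.2 FPKM in DJ. The groups did not overlap, and DJ replicate 2 was 1.01 above DJ replicate 1 on the log2 scale. Its log2 change was -1.64 ± 0.407 (SE, n = 2 per group) and was not called by edgeR (adjusted p = 0.205), but was by DESeq2 (adjusted p = 0.0372). It was also called without either DJ library, which removes the spread within DJ. The log2 change was then -1.05 without replicate 2 and -2.06 without replicate 1. Without modd2 replicate 1 or 2 it was -1.55 and -1.74 and not called.

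Of the summed phosphatase FPKM, OsTPP7 held 45.1 and 49.1% in the libraries labelled modd2 against 62.1 and 73.3% in DJ. OsTPP6 held 35.6 and 31.4% in modd2 against 13.1 and 6.49% in DJ, and OsTPP1 10.7 and 11.3% in modd2 against 18.2 and 17.5% in DJ. OsTPP10 (LOC_Os07g30160) had a log2 change of -0.30 and was not called (adjusted p = 0.524, edgeR). OsTPP3, the gene listed as OsTPP5 and OsTPP8 had at most 2 reads in any library.

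OsTRE1 (LOC_Os10g37660), the trehalase gene, was under the count filter, with 14 and 7 expected reads in the libraries labelled modd2 against 6 and 7 in DJ. Among 12 genes that supply the substrates, coding for UDP-glucose pyrophosphorylases and hexokinases, 9 were tested and none was called by edgeR or DESeq2. At an unadjusted p under 0.05, against 16.8% of all tested genes, 1 was higher and 1 lower. These were OsHXK3, with a log2 change of 0.65 ± 0.198 (SE, adjusted p = 0.168, edgeR), and OsHXK6, with -0.28 ± 0.112 (SE, adjusted p = 0.244, edgeR), both hexokinase genes. OsHXK3 was called with the replicate number as a block (log2 change 0.68, adjusted p = 0.028, edgeR). It was also called without DJ replicate 1 (log2 change 1.02), where the spread is taken mainly from the libraries labelled modd2.

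**Figure D4:**
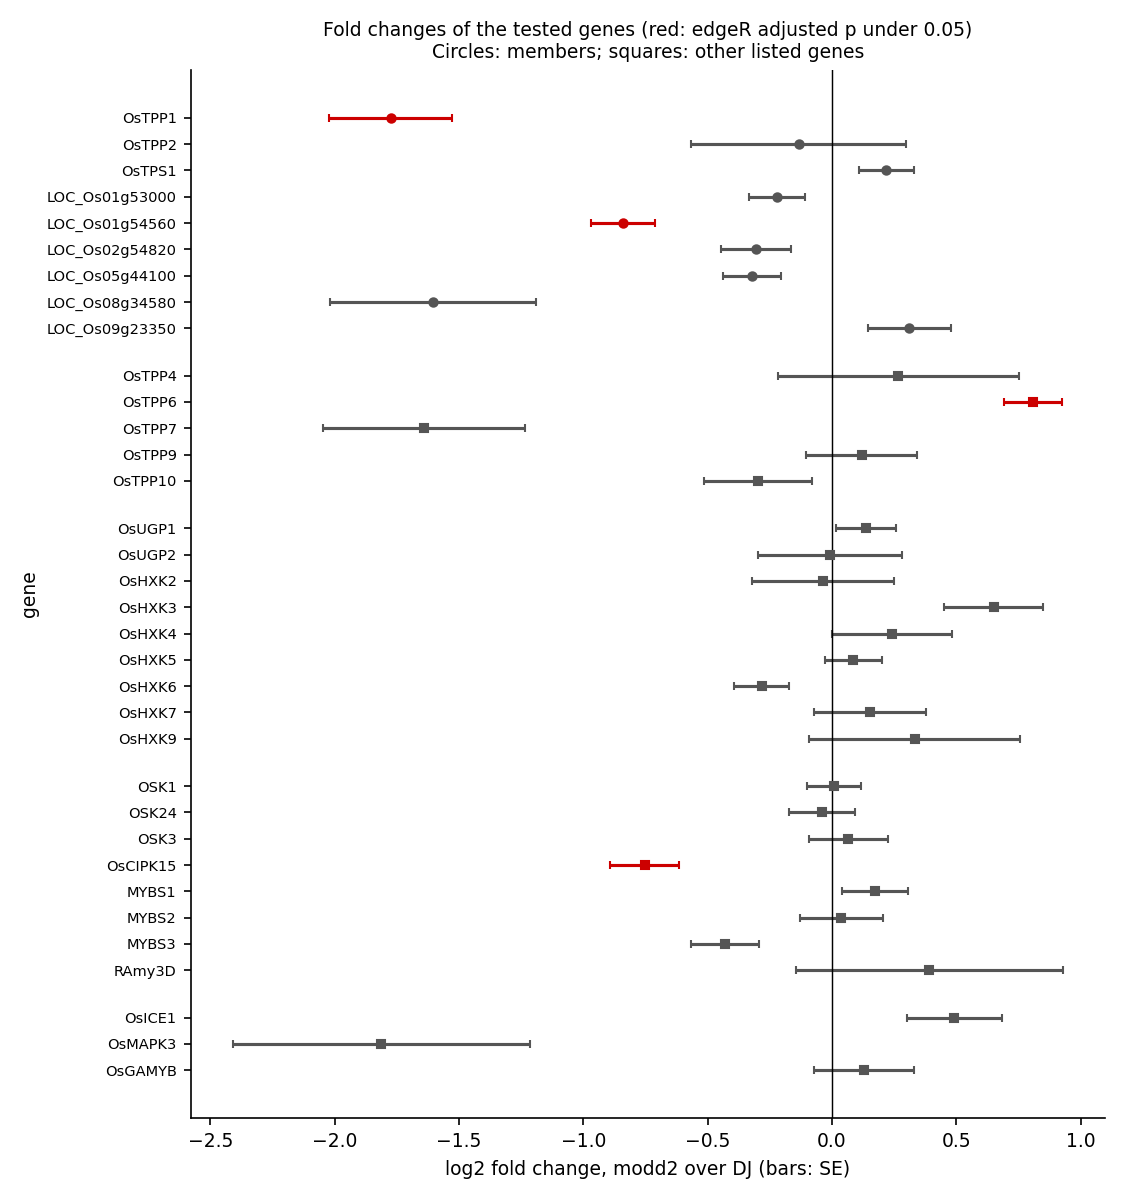
Log2 change of modd2 over DJ with its SE for the tested members (circles) and the other listed genes of the pathway (squares), called genes in red. OsTPP1, LOC_Os01g54560 and OsCIPK15 are called below 0 and OsTPP6 above 0.

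Of 8 genes of SnRK1 and sugar signalling, all tested, 1 was called lower and 0 higher, by edgeR and by DESeq2 alike. Of all tested genes, edgeR called 0.837% and DESeq2 1.81% in either direction. At an unadjusted p under 0.05, which 16.8% of all tested genes had, there were 2 lower and 0 higher. OsCIPK15 (LOC_Os11g02240), a kinase gene known for linking low oxygen to the sugar starvation response, had 706.9 and 744.6 expected reads in the libraries labelled modd2, against 1044 and 1339 in DJ. Its log2 change was -0.75 ± 0.138 (SE, n = 2 per group, adjusted p = 0.0452, edgeR). The call ended with upper-quartile factors (adjusted p = 0.0535, edgeR), with a non-robust fit (0.0523), without modd2 replicate 1 (0.0724) and with limma on log2 FPKM (0.111 and 0.114), and its counts held fractions. The SnRK1 kinase genes OSK1, OSK3 and OSK24 had log2 changes of 0.01, 0.07 and -0.04. MYBS3, a repressor of starch-degrading amylase genes, had one of -0.43 ± 0.137 (SE, adjusted p = 0.157, edgeR), and was called with the replicate number as a block (adjusted p = 0.0351, edgeR). MYBS1, an activator of amylase genes under sugar starvation, had one of 0.17 (adjusted p = 0.548, edgeR).

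OsICE1 and OsMAPK3 are known to act upstream of OsTPP1 in chilled rice, OsICE1 as a transcription factor that binds its promoter and OsMAPK3 as a kinase that stabilises OsICE1. Of the 3 listed regulators, the third being OsGAMYB, none was called by edgeR or DESeq2, and 1, OsICE1, was higher at an unadjusted p under 0.05 (16.8% of all tested genes). OsMAPK3 (LOC_Os03g17700) had 175 and 171 expected reads in the libraries labelled modd2, against 330 and 848 in DJ, with a log2 change of -1.81 ± 0.597 (SE, n = 2 per group, adjusted p = 0.299, edgeR). Its level in DJ replicate 2 was 1.41 above that in DJ replicate 1 on the log2 scale. It was called only when a DJ library was left out, which removes that spread. The log2 change was then -0.94 without DJ replicate 2 and -2.36 without DJ replicate 1. Without modd2 replicate 1 or 2 it was -1.82 and -1.81 and not called. OsICE1 (LOC_Os11g32100) had 176 and 230 reads in modd2 against 165.7 and 116 in DJ. Its log2 change was 0.49 ± 0.192 (SE, adjusted p = 0.24, edgeR). OsICE1 was called without DJ replicate 1 (log2 change 0.74), where the spread is taken mainly from the libraries labelled modd2.

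Across the 4 libraries, OsTPP1, LOC_Os08g34580, OsTPP7 and OsMAPK3 were all highest in DJ replicate 2. This was not particular to them, as LOC_Os01g54560, LOC_Os02g54820, OsCIPK15, MYBS3 and all 5 leaf markers were highest there too. Others, among them OsTPS1, OsTPP6 and LOC_Os09g23350, were lowest in that library. The 2 root markers that were listed, LSI1 and OsHKT2;1, summed to 30.3 and 27.4 CPM in the libraries labelled modd2, against 24.6 and 19.3 in DJ, so DJ replicate 2 was the lowest. The 5 leaf markers summed to 16437 and 18214 CPM in the libraries labelled modd2, against 17791 and 21424 in DJ. None of the 7 tested markers was called by edgeR or DESeq2, though DESeq2 gave OsHKT2;1 no adjusted p. At an unadjusted p under 0.05 by edgeR, against 16.8% of all tested genes, 1 leaf marker was lower and 1 root marker higher. The part of these differences between libraries in the results was not tested.

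Outside the members, 18959 of the genes past the count filter averaged 1 FPKM or more, and among them the profiles most like that of OsTPP1 were those of LOC_Os09g25060 and LOC_Os01g56240. Likeness was the root mean square difference of log2 CPM over the 4 libraries, after each gene was centred on its mean, and was 0.0763 and 0.085. A prior count of 2 was added before taking logs, which pulls together the levels of genes with few reads. As the 2 genes were picked for likeness over these same libraries, a change in the direction of OsTPP1 follows from that choice. The edgeR log2 change was -1.80 for LOC_Os09g25060 and -2.30 for LOC_Os01g56240, against -1.77 for OsTPP1. By fold change LOC_Os01g56240 was thus less close. LOC_Os09g25060 was at 22.6 and 22 FPKM in the libraries labelled modd2 against 54.9 and 94.8 FPKM in DJ. LOC_Os01g56240 was at 0.84 and 1.25 FPKM in modd2 against 4.17 and 6.2 FPKM in DJ. Neither was called (adjusted p = 0.105 by edgeR for both).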

How the data were processed

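The expected counts and FPKM values deposited by the authors are gene-level estimates, 1 table per library. RSEM, Bowtie and BWA appear in the submitters' processing notes, with no version or role. The genome build is not given in the sources used here, nor is the annotation. Tables list only genes above 0, so a missing gene was counted as 0. Expected counts were rounded, filtered with filterByExpr (minimum count 10, minimum total 15) and passed to edgeR 4.0.16 (R 4.3.3), with TMM factors, a robust quasi-likelihood fit, no covariate and Benjamini-Hochberg adjustment at 0.05, after tests on simulated data. Standard errors are the absolute log2 fold change divided by the square root of F. Alternatives used DESeq2 1.42.0, limma 3.58.1 on log2(FPKM + 1) and log2(FPKM + 0.1), other factors and filters, a replicate block and left-out libraries. DESeq2 left some tested genes without an adjusted p, among them OsTPP2, OsTPP10, OsHKT2;1 and OsbZIP46. Such genes count as not called in its numbers and shares. Replicates of a group differed beyond sampling noise (chi-square per degree of freedom 2.54 for modd2, 4.5 for DJ), so all 4 libraries were kept. Counts within 0.005 of a whole number were taken as whole, which held for 8 of the 10 members.

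The members and gene lists were chosen with earlier results of these data known. Named were all members, called genes and the 2 smallest p of each pathway list, markers, check genes, and the 2 profiles nearest to OsTPP1. OSK1, OSK3, OSK24 and OsGAMYB fall outside that rule where named, as do OsTPP3, OsTPP5, OsTPP8 and OsTRE1. A RefSeq gene table (assembly ASM3414082v1) matched 0 of the identifiers. In it, 37 of 47 listed symbols were found, with or without the Os prefix, each with a hit on the chromosome of the locus. Some, such as OsTPP2 and OsHXK3, also had a hit on another chromosome. Only the chromosome was compared, so the locus itself was not checked. The 10 not found were OsTPS1, OsTPP5, OsTRE1, OsUGP1, OsUGP2, OsICE1, OsMAPK3, LHCB1, PSBS1 and OsbZIP46, so for these the chromosome was not checked either. The pairs of symbol and locus come from general knowledge of rice, not from the files. The symbols OSK3 and OSK24 were exchanged to follow that table, so their match to it was fixed by that choice.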

Additional observations from a re-analysis of the deposited data

How the results depend on the processing

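Leaving out a library takes the spread mainly from the group that keeps 2, and the lone library is assumed to vary like them. The number of genes called, 162 as designed (97 higher, 65 lower), was 764 without the count filter, 350 with DESeq2 (160 higher, 190 lower), 102 with upper-quartile factors, 1 with limma on either log2 FPKM scale, 870 with the replicate block (377 higher, 493 lower), and from 144 to 2483 with single libraries left out. The number of members called, 2 as designed, was 1 without the count filter, 0 with limma on either scale, 3 with the replicate block and from 0 (without modd2 replicate 1) to 5 (without DJ replicate 1). The call of OsTPP1 ended without the count filter (edgeR adjusted p = 0.0602) and with limma (adjusted p = 0.0713 and 0.0771), and limma also ended those of LOC_Os01g54560 (0.082 and 0.0868), OsTPP6, OsCIPK15 and MODD. The modd2 minus DJ difference in the log2 ratio of OsTPP1 to OsTPP2 ran from -2.90 to -0.66 with single libraries left out and kept its sign in all 7 alternatives. It was -1.78 with the replicate block (exact p = 0.5, the smallest that sign flips allow). Signs turned for OsTPP2 (log2 fold change 0.018 and 0.074 with limma, and from -0.68 to 0.78 with single libraries left out), for OsbZIP46 (LOC_Os06g10880), at -0.11 as designed (0.020 and 0.028 with limma, -0.47 to 0.38 with libraries left out), and for 3 leaf markers with libraries left out, the Rubisco genes LOC_Os12g17600 (-0.32 to 0.017) and LOC_Os12g19381 (-0.23 to 0.056) and PSBS1 (-0.26 to 0.089), each above 0 only without DJ replicate 2. For 28 named and tested genes, without the 2 profiles nearest to OsTPP1, 388 alternatives were run. Of these, 338 kept direction and call, 17 lost a call, 22 gained one and 11 changed sign. Only the genes called as designed could lose a call. All 17 losses fell on OsTPP1 (5 of its 14 alternatives), LOC_Os01g54560, OsTPP6, OsCIPK15 and MODD. Replicate numbers were not used as a block in the main fit because the labels state no batch or day. The deviations of same-numbered libraries, computed after that fit, correlated at 0.0126 across genes. The block gained LOC_Os08g34580, OsTPP7 (edgeR adjusted p = 0.017), OsHXK3 and MYBS3 and lost no call among the named genes. Except where stated, the cause was not tested.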
